A study of Mus musculus with 4 samples.

Results

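The genes described here encode the proteins of the cytosolic ribosome, together with close paralogs of some of them. They were chosen by name, as genes whose symbol has the form of a large subunit (Rpl) or small subunit (Rps) protein, or is Rpsa, Rplp0, Rplp1 or Rplp2, with 20 or more counts in at least 1 library. Of 21959 listed genes, 84 had such a symbol, and 83 passed the count minimum, 51 of the large and 32 of the small subunit. The only one left out was Rpl10l, which had 0 counts in every library. Just inside the minimum lay Rpl39l, with a highest count of 29, and Rps10, with 42. The choice used counts and no ratio between groups, but these genes were singled out with earlier results of the same data known, so their values are given as a description with no test.

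RNA was sequenced from 2 kinds of cells isolated from MC38 tumours, dendritic cells (DCs) and CD3+ T cells. The tumours grow from a mouse colon carcinoma cell line. DCs present antigen to T cells, and CD3 is the signalling part of the T cell receptor. The groups were DCs of mice given X-Ray+O-IMDQ, DCs of mice given PBS, T cells of mice given X-Ray+O-IMDQ and T cells of mice given PBS, each collected 72 h after the second treatment. All mice carried the tumour, X-Ray+O-IMDQ is called a radiotherapy-activated prodrug in the series, and X-rays were not separated from O-IMDQ by any group used here. The strain, age and number of the mice, the doses and the markers used to isolate DCs are not given in the sources used here. Each group had 1 library, with 14056428 counts for treated DCs, 23797357 for PBS DCs, 18463944 for treated T cells and 18649824 for PBS T cells. No spread between animals could therefore be measured with these libraries. Each difference is one of libraries rather than of conditions, and p-values are not given. A further 2 PBS libraries that match no listed sample were not used. Intervals are 95% intervals for counting error only, since each group had 1 library, and they treat reads as independent. No source used here names molecular identifiers, without which PCR copies of a molecule are counted as separate reads. The intervals may therefore be too narrow even for counting error.

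A ribosome consists of a small subunit, which holds and decodes the mRNA, and a large subunit, which joins amino acids and carries the exit tunnel for the new chain. Cells make the ribosomal proteins in matched amounts, and their mRNAs are short and among the most abundant of a cell. Most of these mRNAs begin with a run of pyrimidines at the 5′ end, the TOP motif, through which mTORC1 and the RNA-binding protein LARP1 adjust their translation and stability as a group. Activation of T cells is known to raise ribosome production.

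Promoter windows were available for 63 of the 83 genes from RefSeq (assembly GRCm38.p6), reaching from 250 bases before the listed gene start to 50 after it. A gene was counted once if any of its listed windows held the letters. The letters CTTTCC, a pyrimidine run, were found on either strand for 33 of these 63 genes (52.4%), against 29.3% of 27025 genes with a window. CCGGAAG, letters of the kind bound by ETS and GABP factors, were found for 26 (41.3%), against 9.93% of all genes with a window. AAGATGG, letters of the kind bound by YY1, were found for 10 (15.9%), against 7.28%. TATAAA was found for 7 (11.1%), against 15.7% of all genes with a window. All 4 motifs were searched on both strands. AAGATGG can share its first letters with the end of CCGGAAG or of the reverse complement of CTTTCC, so matches of these can overlap. A match describes letters and is not a bound site. The windows below, from 40 bases before to 20 after the listed start, are shown because they belong to the genes at either end of the treated over PBS ratio in DCs among those with a window. Capitals mark CTTTCC or CCGGAAG. The first 5 genes had the highest ratios.
Rps28, chr17:33824543-33824602, minus strand: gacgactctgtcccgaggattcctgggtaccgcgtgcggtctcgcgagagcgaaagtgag
Rpl3l, chr17:24727786-24727845, plus strand: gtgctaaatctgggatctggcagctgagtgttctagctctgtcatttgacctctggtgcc
Rps21, chr2:180257339-180257398, plus strand: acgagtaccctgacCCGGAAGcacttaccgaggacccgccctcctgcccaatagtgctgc
Rpl35, chr2:39005112-39005171, minus strand: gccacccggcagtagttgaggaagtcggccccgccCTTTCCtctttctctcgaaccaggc
Rpl38, chr11:114668540-114668599, plus strand: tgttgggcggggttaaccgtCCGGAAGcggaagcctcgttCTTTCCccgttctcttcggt
The next 5 genes had the lowest ratios.
Rpl15, chr14:18270967-18271026, minus strand: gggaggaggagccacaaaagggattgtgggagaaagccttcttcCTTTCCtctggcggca
Rplp0, chr5:115559427-115559486, plus strand: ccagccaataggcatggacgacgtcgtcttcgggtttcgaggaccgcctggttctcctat
Rpl6, chr5:121204461-121204520, plus strand: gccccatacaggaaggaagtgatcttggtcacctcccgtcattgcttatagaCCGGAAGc
Rpl7l1, chr17:46782637-46782696, minus strand: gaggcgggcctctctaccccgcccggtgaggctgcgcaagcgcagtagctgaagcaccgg
Rpl4, chr9:64173347-64173406, plus strand: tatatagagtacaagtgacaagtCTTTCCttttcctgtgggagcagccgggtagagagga
In these shorter windows a motif stood in 3 of the 5 highest and 3 of the 5 lowest genes.

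Ribosomal protein genes took 10.2% of all counts in the treated DC library, against 3.98% in the PBS DC library. In T cells the order was the opposite, with 6.23% in the treated library and 9.07% in the PBS library. The exact (Clopper-Pearson) intervals were 10.23 to 10.26% for treated DCs, 3.969 to 3.985% for PBS DCs, 6.223 to 6.245% for treated T cells and 9.055 to 9.081% for PBS T cells. Large subunit genes took 5.54% and small subunit genes 4.71% in treated DCs, against 2.08% and 1.90% in PBS DCs. In treated T cells large and small subunit genes took 3.18% and 3.05%, against 4.56% and 4.51% in PBS T cells. Both subunits thus differed in the same direction within each cell type. In bulk RNA, fewer cells of a type and less RNA per cell cannot be told apart, and a share of counts also depends on all other genes.

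**Figure D1:**
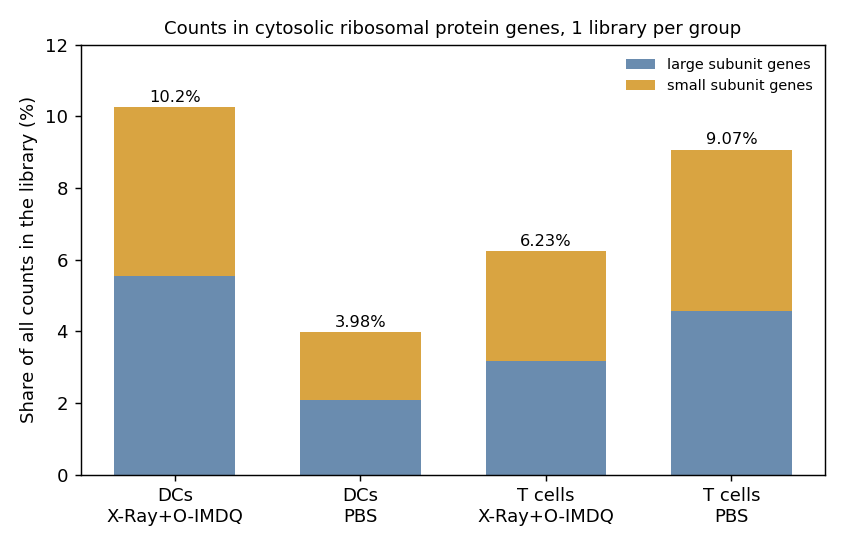
Share of all counts (%) that fell in large subunit and small subunit ribosomal protein genes in each library, with 1 library per group. The treated DC bar (10.2%) stands above the PBS DC bar (3.98%), and the treated T cell bar (6.23%) below the PBS T cell bar (9.07%).

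Levels of single genes were compared as FPKM, the count scaled by the listed gene length and by the library total. The median over the 83 genes was 512 FPKM in treated DCs, 198 FPKM in PBS DCs, 298 FPKM in treated T cells and 430 FPKM in PBS T cells. Of the 100 genes with the highest FPKM in a library, 16 were ribosomal protein genes in treated DCs, 6 in PBS DCs, 16 in treated T cells and 25 in PBS T cells. Rpl41, which encodes a very short basic peptide of the large subunit, had the highest mean level, with 6718 FPKM in treated DCs, 1396 FPKM in PBS DCs, 2147 FPKM in treated T cells and 3512 FPKM in PBS T cells. Next by mean level came Rplp1 with 2005 FPKM, Rps27l with 1908 FPKM, Rplp0 with 1842 FPKM and Rps29 with 1610 FPKM over the 4 libraries.

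The order of levels among the 83 genes was nearly the same in 3 of the libraries. Spearman's rho of FPKM was 0.974 between treated and PBS T cells, 0.936 between treated T cells and PBS DCs, and 0.913 between PBS DCs and PBS T cells. The treated DC library stood apart, with a rho of 0.606 against PBS DCs, 0.552 against treated T cells and 0.639 against PBS T cells. These correlations are across genes that share listed lengths, so they describe 4 libraries and carry no p-value. Rplp0 ranked 233 by FPKM in treated DCs and 36 in PBS DCs, 11 in treated T cells and 12 in PBS T cells. Rps27l ranked 10 in treated DCs and 116 in PBS DCs, 244 in treated T cells and 146 in PBS T cells. Listed lengths exceed the mature transcript for many of these genes, such as 1719 listed against 271 transcript bases for Rps28, so FPKM understates their level.

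**Figure D2:**
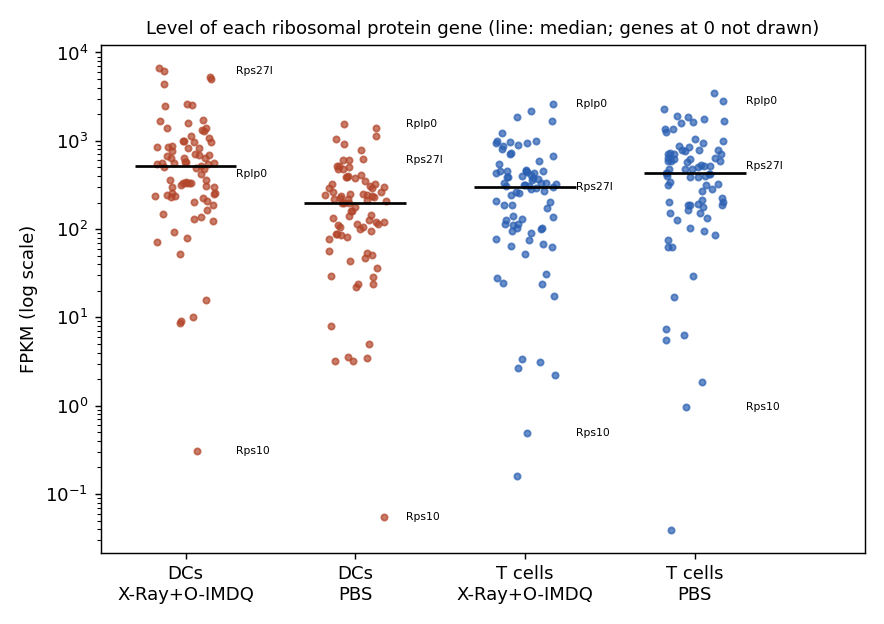
FPKM (log scale) of each ribosomal protein gene by library, each point 1 gene and each line the median of 512, 198, 298 and 430 FPKM from left to right. Rplp0 lies near the top of PBS DCs and both T cell libraries but below the median of treated DCs, where Rps27l is among the highest.

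The comparison within DCs asks how the treatment bears on dendritic cells of the tumour. Ribosomal protein genes of both subunits were mostly higher in the treated DC library. Counts were scaled by the TMM method, and a difference was called where it was 2-fold or larger and its counting interval excluded equality. Of 81 ribosomal protein genes with 20 or more counts in either DC library, 51 (63.0%) were called higher, 2 lower and 28 neither. Over 10316 genes, 30.2% were called higher and 41.8% lower. The median log2 ratio, treated over PBS, was 1.78 over ribosomal protein genes, with an interquartile range from 0.55 to 2.73, against -0.36 over all genes. Small subunit genes had 19 of 31 higher and 0 lower, with a median of 1.78, and large subunit genes had 32 of 50 higher and 2 lower, with a median of 1.69.

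Among large subunit genes with 100 or more counts, the ratio was highest for Rpl23a, which lies at the exit of the tunnel (chromosome 11, 78071758 to 78074410, GRCm39). Rpl23a had 1767 counts in treated DCs and 71 in PBS DCs, a log2 ratio of 5.46 with an interval of 5.11 to 5.82. Rpl35, which neighbours it in the ribosome (chromosome 2, 38891592 to 38895636), had 3147 CPM (counts scaled to library size by TMM) in treated DCs and 129 CPM in PBS DCs. That is 24.3-fold higher in the treated library, with a log2 interval of 4.55 to 4.66. Rpl38, named after its values were seen, is known in mice for its part in the translation of Hox mRNAs. It had 2778 CPM in treated DCs and 131 CPM in PBS DCs, a log2 ratio of 4.40. Rpl39, which lines the exit tunnel, had 790 CPM in treated DCs and 66.5 CPM in PBS DCs, a log2 ratio of 3.57.

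Among small subunit genes, Rps28 (chromosome 17, 34038001 to 34043536), which sits near the mRNA exit, had 1736 CPM in treated DCs and 61.4 CPM in PBS DCs. Its ratio was 28.3-fold, with a log2 interval of 4.75 to 4.90. Rps21 (chromosome 2, 179899170 to 179900238) had 570 CPM in treated DCs and 22.5 CPM in PBS DCs, a log2 ratio of 4.67. Rps29, a zinc-binding protein of the small subunit, had 3704 CPM in treated DCs and 222 CPM in PBS DCs, a log2 ratio of 4.06. At the other end of the small subunit order, Rps6, the substrate of S6 kinase, named after its values were seen, had 1567 CPM in treated DCs and 1752 CPM in PBS DCs, a log2 ratio of -0.16 that was not called. Rps19, also named after its values were seen and mutated in many patients with Diamond-Blackfan anaemia, had 3687 CPM in treated DCs and 2207 CPM in PBS DCs, a log2 ratio of 0.74 that was not called. Rpsa, a small subunit protein also known as the laminin receptor, had 1165 CPM in treated DCs and 670 CPM in PBS DCs, a log2 ratio of 0.80.

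The P stalk, which draws translation factors to the large subunit, had members on both sides. Rplp1 had 2249 CPM in treated DCs and 447 CPM in PBS DCs, a log2 ratio of 2.33. Rplp2 had 1350 CPM in treated DCs and 204 CPM in PBS DCs, a log2 ratio of 2.73. Rplp0, the stalk base that carries the Rplp1 and Rplp2 dimers (chromosome 5, 115697526 to 115701786), had 712 CPM in treated DCs and 2506 CPM in PBS DCs, and was 3.52-fold lower, with a log2 interval of -1.84 to -1.78. The other gene called lower was Rpl15, a protein of the large subunit core (chromosome 14, 4198305 to 4201873), with 133 CPM in treated DCs and 476 CPM in PBS DCs, a log2 ratio of -1.84. Rpl6, Rpl7l1 and Rpl3 came next, with log2 ratios of -0.83, -0.83 and -0.54, and Rpl4, whose loop reaches into the exit tunnel, had -0.24. After correction for listed gene length by a smooth curve over all genes, Rplp0 and Rpl15 had log2 ratios of -0.57 and -0.41 and were no longer called, Rplp1 at 0.69 was not called, and 72 genes were called higher. The same correction turned Rpl6 to 0.36, Rpl7l1 to 0.17 and Rpl3 to 0.64, none of them called, and Rpl4 to 1.16, which was called higher.

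Several paralogs were measured beside their parent genes. Rps27l, a paralog of Rps27 and a known target of p53, had 5169 CPM in treated DCs and 485 CPM in PBS DCs, a log2 ratio of 3.41, and Rps27 had 1379 CPM in treated DCs and 123 CPM in PBS DCs, a log2 ratio of 3.48. Rps27l thus had more counts than its parent in both DC libraries. In treated T cells the order was the opposite, with 4493 counts for Rps27l and 7598 for Rps27, and in PBS T cells 7932 and 16409. Rpl22l1 had a log2 ratio of 3.60 in DCs and its parent Rpl22, which T cell development requires in mice, one of 2.45. Rpl3l, a paralog of Rpl3 that is known from heart and skeletal muscle, had 1849 counts in treated DCs, 125 in PBS DCs, 82 in treated T cells and 0 in PBS T cells. The DC log2 ratio of Rpl3l was 4.71, with an interval of 4.44 to 4.98, while that of Rpl3 was -0.54, or 0.64 after correction for listed gene length. Rpl36al had 191 counts in treated DCs, 111 in PBS DCs, 4 in treated T cells and 1 in PBS T cells, and its DC log2 ratio was 1.60, against 2.62 for its parent Rpl36a. Rpl7l1 had a log2 ratio of -0.83, or 0.17 after that correction, and its parent Rpl7 one of 1.10 without it. Rpl39l, a paralog of Rpl39 known from the testis, had 29 counts in PBS T cells and 0 in the other libraries.

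Some genes that every cell needs had few counts. Rps10 had 10 counts in treated DCs, 3 in PBS DCs, 21 in treated T cells and 42 in PBS T cells. Rpl24 had 125 counts in treated DCs, 124 in PBS DCs, 65 in treated T cells and 143 in PBS T cells. For Rpl13a the counts were 271 in treated DCs, 162 in PBS DCs, 87 in treated T cells and 220 in PBS T cells. Rpl23a had only 71 counts in PBS DCs, 49 in treated T cells and 99 in PBS T cells. Ribosomal protein genes have many near-identical processed copies in the mouse genome, and the sources used here do not say how reads were assigned among copies, so the level of a gene with few counts is uncertain. With 100 or more counts required in both DC libraries, the median log2 ratio was 1.72 and 50 genes were called higher.

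**Figure D3:**
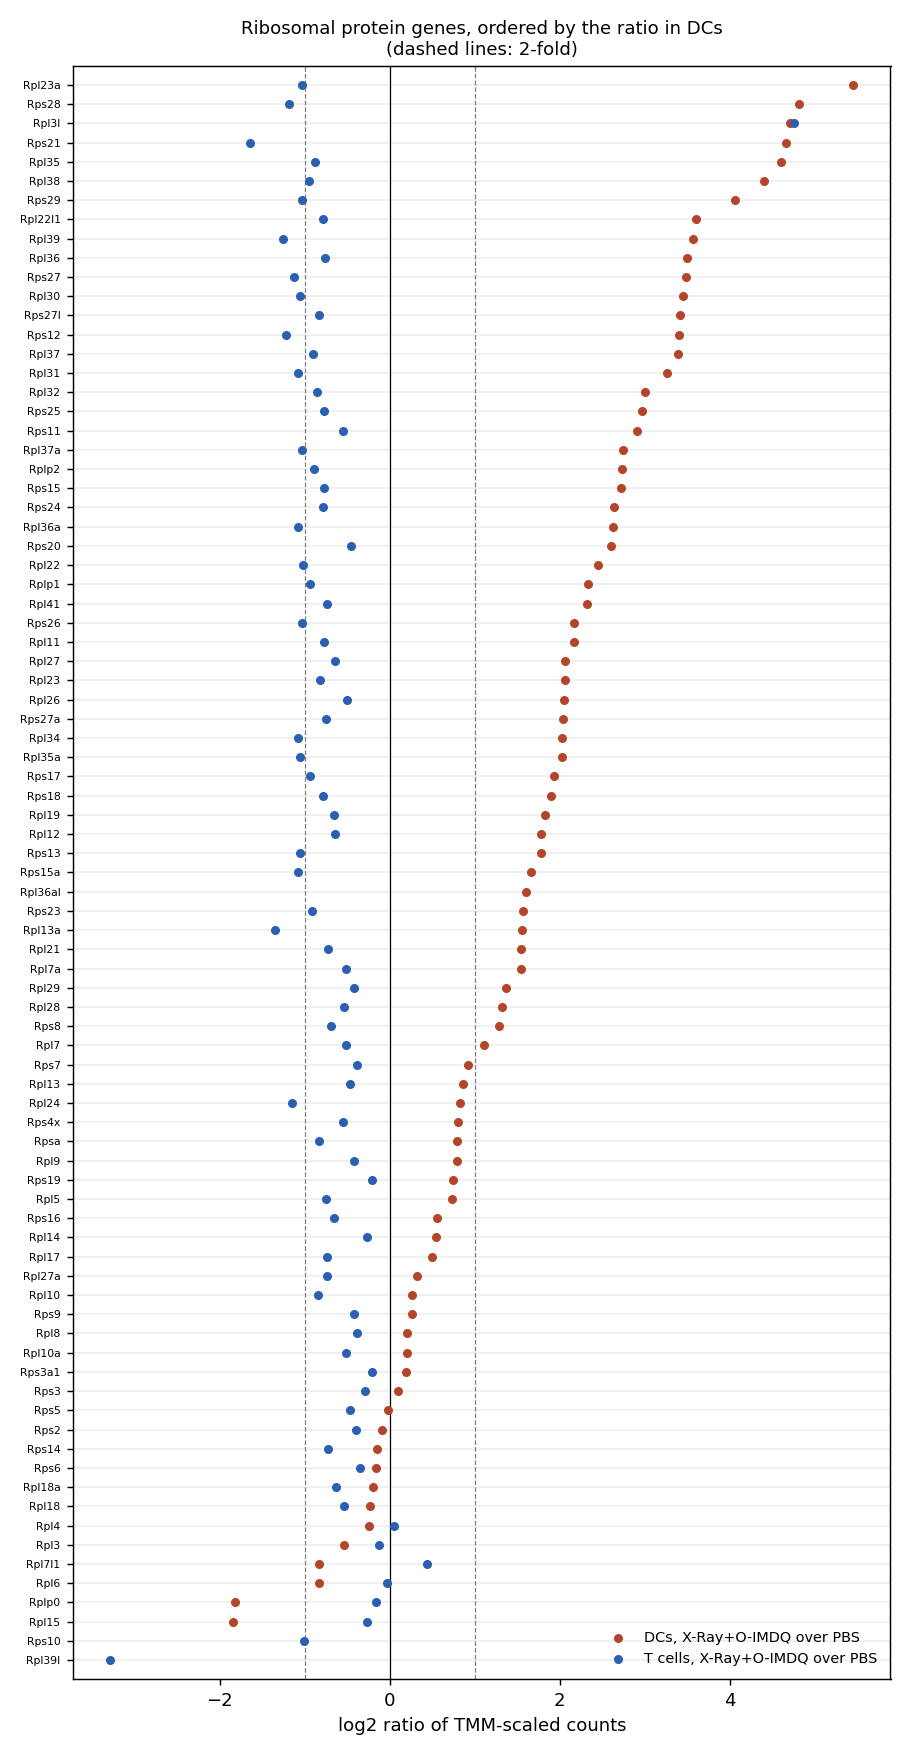
Log2 ratio of TMM-scaled counts, X-Ray+O-IMDQ over PBS, for each ribosomal protein gene in DCs (red) and T cells (blue), ordered by the DC ratio. The DC points run from -1.84 (Rpl15) to 5.46 (Rpl23a), while T cell points lie between 0 and -1.65 apart from Rpl3l, Rpl7l1, Rpl4 and Rpl39l.

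Other features of the DC libraries differed as well. Genes encoded by the mitochondrial genome took 169081 counts in treated DCs and 92997 in PBS DCs, whose library was deeper, and all 12 that entered were called higher, with a median log2 ratio of 3.21. Of 7857 genes with 100 or more counts in PBS DCs, 942 had 0 counts in treated DCs, and of 6476 with 100 or more in treated DCs, 213 had 0 in PBS DCs. Marker sums are given as CPM of the library total, without TMM. The 11 dendritic cell markers summed to 6529 CPM in treated DCs and 50220 CPM in PBS DCs, with 5 called higher and 4 lower. Most of the sum was H2-Ab1, at 5892 CPM in treated DCs and 49192 CPM in PBS DCs. The markers called higher were Fscn1, Zbtb46, Clec9a, Flt3 and Irf8, with log2 ratios of 5.12, 3.48, 3.45, 2.93 and 1.03. Those called lower were Batf3, with 0 counts in treated DCs and 479 in PBS DCs, and Cd209a, H2-Ab1 and Ccr7, with log2 ratios of -4.02, -3.00 and -1.77. Itgax, with 3547 counts in treated DCs and 3982 in PBS DCs, and Xcr1 were not called. The 7 macrophage markers summed to 1372 CPM in treated DCs and 5797 CPM in PBS DCs, with 4 of 7 called lower, none called higher and none at 0. The T cell markers, 8 of 11 of which are in the tables, summed to 95.7 CPM in treated DCs and 89.8 CPM in PBS DCs, but single markers differed in both directions. Cd3d had 812 counts in treated DCs and 434 in PBS DCs and Cd5 had 278 in treated DCs and 1 in PBS DCs, both called higher. Cd3g had 1 count in treated DCs and 576 in PBS DCs and Lck had 0 in treated DCs and 607 in PBS DCs, both called lower. Cd8b1, with 254 counts in treated DCs and 517 in PBS DCs, was not called, Cd8a had 0 in treated DCs and 1 in PBS DCs, and Cd3e and Cd4 were at 0 in both. B cell markers summed to 12.6 and 41.4 CPM, neutrophil markers to 74.2 and 22.1 CPM, NK cell markers to 9.68 and 0 CPM and MC38 epithelial markers to 0 and 9.20 CPM in treated and PBS DCs. Single neutrophil markers went both ways. S100a8, with 1009 counts in treated DCs and 90 in PBS DCs, was called higher. Csf3r, with 34 in treated DCs and 436 in PBS DCs, was called lower, and S100a9 and Ly6g were at 0 in both. The part of these differences in the ribosomal protein result was not tested.

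The comparison within T cells asks how the treatment bears on T cells of the tumour. Nearly every ribosomal protein gene had a slightly lower value in the treated T cell library, and most differences were under 2-fold. Of 82 genes that entered, 79 had a log2 ratio below 0, and 21 (25.6%) were called lower, 1 higher and 60 neither. Over 11058 genes, 25.4% were called lower and 18.3% higher, so the share called lower was near that of all genes. The median log2 ratio was -0.75, against -0.07 over all genes. The ratios of the 77 genes that are not paralogs had an SD of 0.33, against 2.30 over all genes, which include many with few counts. The SD was 0.34 over 17 other genes whose mRNAs carry a TOP motif and 0.32 over 10 mitochondrially encoded genes. Small subunit genes had 9 of 32 lower and 0 higher, with a median of -0.77, and large subunit genes had 12 of 50 lower and 1 higher, with a median of -0.74. With a 1.5-fold threshold 53 genes were called lower, and after correction for coding length, chosen after seeing the data, 3 were.

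Among small subunit genes, Rps21 had the lowest ratio of those with 100 or more counts, with 19.6 CPM in treated T cells and 61.5 CPM in PBS T cells. It was 3.13-fold lower, with a log2 interval of -1.82 to -1.48. Rps12 had 55.6 CPM in treated T cells and 129 CPM in PBS T cells, a log2 ratio of -1.21. Rps28 had 117 CPM in treated T cells and 266 CPM in PBS T cells, a log2 ratio of -1.19, and Rps27 had 408 CPM in treated T cells and 888 CPM in PBS T cells, a log2 ratio of -1.12. Rpsa had 773 CPM in treated T cells and 1379 CPM in PBS T cells, a log2 ratio of -0.84 that was not called.

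Among large subunit genes, Rpl39 had 107 CPM in treated T cells and 255 CPM in PBS T cells, a log2 ratio of -1.25. Rpl13a had 87 counts in treated T cells and 220 in PBS T cells, a log2 ratio of -1.35 with an interval of -1.73 to -0.99. Rpl24 and Rps10, which also had few counts, were called lower with log2 ratios of -1.15 and -1.01. Rplp1 and Rplp2 of the stalk had log2 ratios of -0.93 and -0.89, while the stalk base Rplp0, with 4233 CPM in treated T cells and 4736 CPM in PBS T cells, had -0.16, none of them called. Rpl41 had 2484 CPM in treated T cells and 4141 CPM in PBS T cells, a log2 ratio of -0.74. The highest ratios among genes with 100 or more counts were those of Rpl7l1 at 0.44, Rpl4 at 0.05, Rpl6 at -0.03 and Rpl3 at -0.13, none of them called. Of the paralogs, Rpl3l had 82 counts in treated T cells and 0 in PBS T cells, at least 27.1-fold higher at a floor of 3 counts. Rpl39l had 0 counts in treated T cells and 29 in PBS T cells, at least 9.75-fold lower at the same floor. Rps27l and Rpl22l1 had log2 ratios of -0.83 and -0.79.

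In T cells the mitochondrially encoded genes took 0.484% of counts in the treated library and 0.603% in the PBS library, with a median log2 ratio of -0.44 over 10 genes and 1 called lower. The T cell markers summed to 13456 CPM in treated T cells and 13229 CPM in PBS T cells, with 1 of 8 called higher and none lower or at 0. The marker called higher was Cd4, with 252 counts in treated T cells and 17 in PBS T cells. The dendritic cell markers summed to 1798 CPM in treated T cells and 1327 CPM in PBS T cells, most of it Ccr7, which T cells also express. Macrophage markers summed to 155 and 182 CPM, B cell markers to 7.47 and 0.912 CPM, neutrophil markers to 1.73 and 1.98 CPM, NK cell markers to 935 and 749 CPM and MC38 epithelial markers to 0.162 and 4.77 CPM in treated and PBS T cells. Single markers of these lists were called in both directions. Flt3, Fscn1, Zbtb46, Adgre1, Csf1r, Mrc1, Klrb1c and Krt18 were called lower, and Cd209a, Xcr1, Cd79b and Eomes higher. Adgre1 had 0 counts in treated T cells and 334 in PBS T cells, and Cd209a had 219 in treated T cells and 7 in PBS T cells. Nearly all of the NK sum was Prf1, which killer T cells express too. Of 8607 genes with 100 or more counts in PBS T cells, 342 had 0 counts in treated T cells, and of 8220 with 100 or more in treated T cells, 104 had 0 in PBS T cells. The part of these values in the T cell result was not tested.

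Set side by side, genes with a higher ratio in DCs tended to have a lower ratio in T cells, with Rpl3l as an exception. These comparisons share no library. Over the 80 genes that entered both, Spearman's rho of the log2 ratios was -0.67 and Pearson's r -0.16, and over the 76 that are not paralogs they were -0.73 and -0.72. The points share gene lengths and base composition, so this is a description with no p-value. A ratio above 0 in DCs and below 0 in T cells was seen for 67 of 80 genes (83.8%), against 24.1% of 9388 genes that entered both comparisons. Of these 67, 18 were called in both cell types, which is 22.5% of the 80, against 7.39% of all genes. These 18 were Rpl13a, Rpl22, Rpl23a, Rpl30, Rpl31, Rpl34, Rpl35a, Rpl36a, Rpl37a and Rpl39 of the large subunit and Rps12, Rps13, Rps15a, Rps21, Rps26, Rps27, Rps28 and Rps29 of the small subunit. No gene was called lower in DCs and higher in T cells, and Rpl3l was called higher in both. With total-count scaling Rpl22 and Rps26 were just under 2-fold in T cells, and after correction for listed gene length Rpl23a, Rpl31, Rpl36a, Rpl37a, Rpl39, Rps26, Rps27 and Rps29 were no longer called there. After correction for coding length, only Rpl13a and Rps21 of the 18 were still called lower in T cells, while all 18 were still called higher in DCs.

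**Figure D4:**
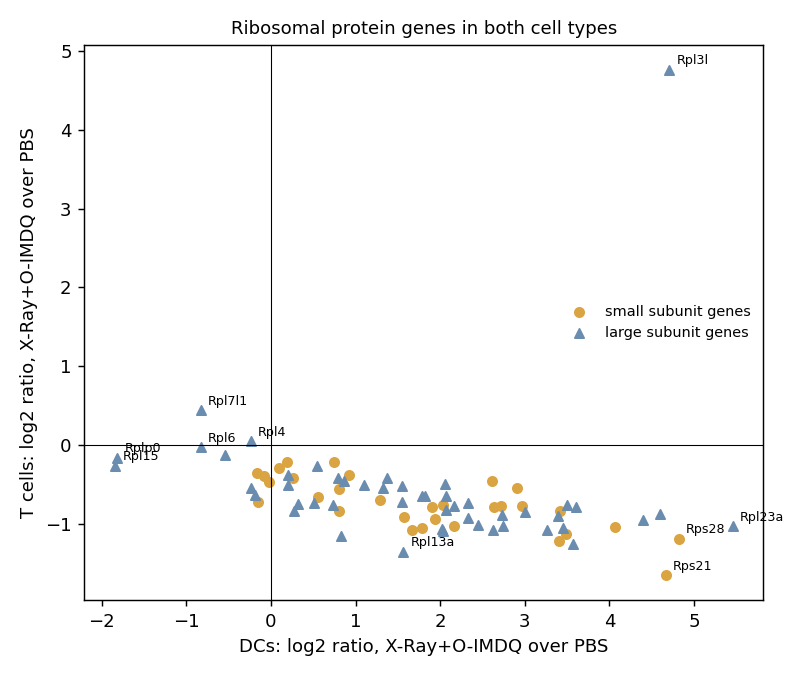
Log2 ratio, X-Ray+O-IMDQ over PBS, of each ribosomal protein gene in DCs (horizontal) and in T cells (vertical), small and large subunit genes marked apart. The cloud slopes downward (Spearman's rho -0.67, 80 genes), and Rpl3l stands alone with high values on both axes.

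Coding length, which the choice of genes did not use, ran with the ratio in both cell types. In DCs Spearman's rho between coding length and log2 ratio was -0.76 over 81 ribosomal protein genes, against 0.13 over 10209 other genes. In T cells it was 0.73 over 82 ribosomal protein genes, against 0.05 over 10942 others. These sets cover unlike lengths. Beyond 900 bases lay 7237 other genes in DCs and 7810 in T cells, but only 4 ribosomal protein genes in each. Up to 900 bases, the medians of other genes by length class also fell with length in DCs and rose with length in T cells. All points of a comparison come from the same pair of libraries, and length goes with base composition and gene family, so these too are descriptions.

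In DCs the median ratio of ribosomal protein genes was lower with each step of length. With a coding length of at most 300 bases, the median log2 ratio in DCs was 3.53 over 10 ribosomal protein genes and 1.31 over 235 others. Between 300 and 400 bases it was 2.63 over 18 and 0.42 over 345 others, and between 400 and 500 bases 1.79 over 21 and -0.41 over 406 others. From 500 to 600 bases it was 0.65 over 8 and -0.76 over 480 others, and from 600 to 900 bases 0.24 over 20 and -1.23 over 1506 others. Beyond 900 bases, with only 4 ribosomal protein genes, it was -0.39, against -0.22 over 7237 others. The others therefore also had their highest median among the shortest genes, with medians below those of ribosomal protein genes in each class up to 900 bases. Classes with fewer than 20 ribosomal protein genes are thinly filled.

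In T cells the order along length was the reverse. The median log2 ratio was -1.04 over 11 ribosomal protein genes of at most 300 bases, against -0.60 over 232 others. From 600 to 900 bases it was -0.46 over 20 and -0.05 over 1597 others, and beyond 900 bases -0.04 over 4 and 0.03 over 7810 others. A correction for coding length by a smooth curve over all genes gave medians of 2.11 in DCs and -0.45 in T cells. What else moves with length in these libraries was not tested.

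**Figure D5:**
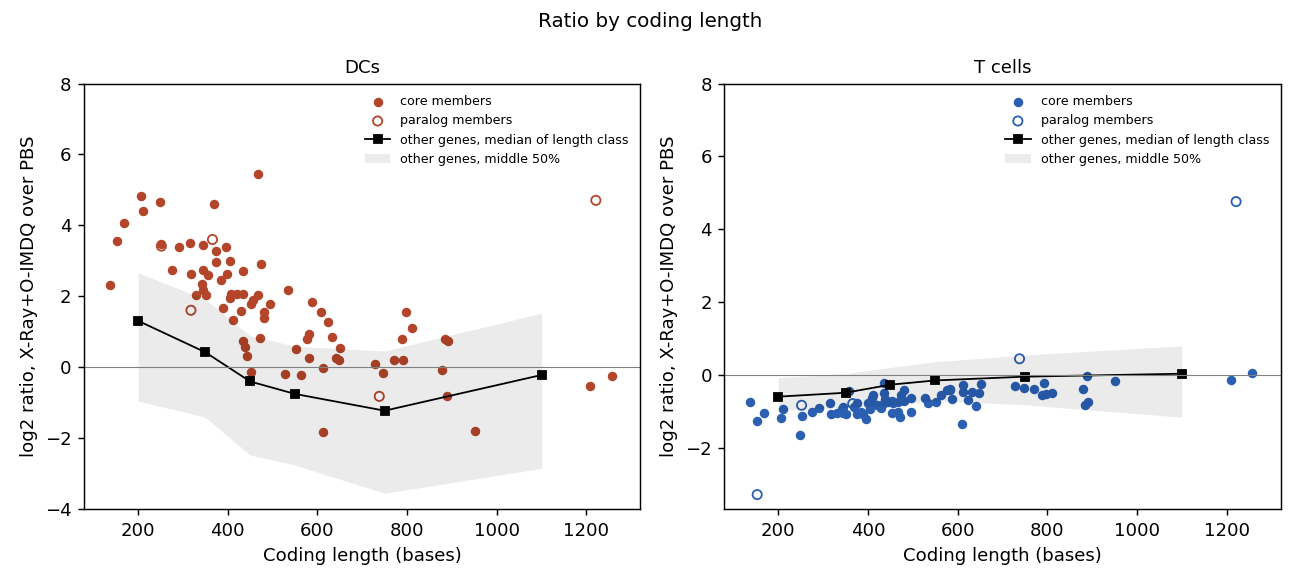
Log2 ratio, X-Ray+O-IMDQ over PBS, against coding length in bases for ribosomal protein genes (points, paralogs open), with the median and interquartile range of other genes by length class (line and band). In DCs the points fall with length and lie mostly above the line, and in T cells they climb with length and lie mostly below it.

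DCs were also set against T cells under each treatment, with the scaling made anew for each pair. In treated mice, 52 of 82 ribosomal protein genes were called higher in DCs than in T cells and 2 lower, with a median log2 ratio of 1.81. Over 10606 genes in that pair, 31.1% were called higher and 43.4% lower, with a median of -0.43. In PBS mice, 3 of 83 were called higher in DCs and 24 lower, with a median of -0.56 and 75 genes below 0. Over 11364 genes in the PBS pair, 25.6% were called higher and 34.8% lower, with a median of -0.17. Scaling by total counts moved all log2 ratios by -0.65 in the treated pair and -0.53 in the PBS pair. The medians were then 1.17 in the treated pair and -1.09 in the PBS pair, with 47 genes called lower in the PBS DCs.

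Single genes differed in how far DCs stood from T cells. In treated mice Rpl23a had a log2 ratio, DCs over T cells, of 6.21, Rpl35 one of 5.23 and Rps27l one of 5.03. The genes called lower were Rplp0 at -1.97 and Rpl15 at -1.70, as within DCs, but both comparisons use the same treated DC library. In PBS mice the genes called higher in DCs were the paralogs Rpl36al, Rpl3l and Rpl7l1. Rpl7l1 had a log2 ratio of 1.29 there, Rpl3l was at least 47.1-fold higher at the floor of 3 counts, and Rpl36al, with 111 counts in DCs and 1 in T cells, had a log2 ratio of 6.97 with an interval of 4.46 to 12.3. Those called lower in PBS mice included Rps15a at -2.32 and Rps27 at -2.28. Rpl39l and Rps10, with few counts, were also called lower there, Rps10 at -3.63.

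Genes related to the ribosome did not share one direction in DCs. Fau, a ribosomal protein made as a fusion with a ubiquitin-like protein, is missed by the name pattern and had a log2 ratio of 0.89 in DCs and -0.61 in T cells. Of 17 other genes whose mRNAs carry a TOP motif, 4 (23.5%) were called higher and 3 (17.6%) lower in DCs, with a median of 0.21. Over all genes these shares were 30.2% and 41.8%. None of the 17 was called in T cells, with a median of -0.19. Their coding lengths began at 516 bases (Tpt1). Ribosomal protein genes of 500 to 600, 600 to 900 and over 900 bases had DC medians of 0.65, 0.24 and -0.39. The part of length in this difference was not tested. Tpt1, the translationally controlled tumour protein, and Pabpc1, the poly(A)-binding protein, had DC log2 ratios of 1.85 and 1.79. Eef1b2 at 1.01 was also called higher in DCs, as was Vim, with 29123 counts in treated DCs and 18182 in PBS DCs. Eef1d, an exchange subunit of elongation factor 1, was lower at -1.66, as were Eif4b at -1.55 and Eif3h at -1.27. Eef1a1, the factor that delivers tRNA to the ribosome, had 0.40 in DCs and 0.14 in T cells and was not called. The scaffold Rack1, which binds the small subunit, had 0.21 in DCs and -0.60 in T cells.

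Of 48 ribosome biogenesis genes, 13 were called higher and 15 lower in DCs, with a median of -0.31, and 5 were called higher and 10 lower in T cells, with a median of -0.11. The DC shares were 27.1% and 31.25%, against 30.2% and 41.8% of all genes. The T cell shares were 10.4% and 20.8%, against 18.3% and 25.4%. The highest in DCs was Efl1, which helps release Eif6 from the large subunit, with 111 counts in treated DCs and 3 in PBS DCs, a log2 ratio of 6.03 with an interval of 4.44 to 8.33. Polr1a, the largest subunit of RNA polymerase I, had 212 counts in treated DCs and 9 in PBS DCs, and Utp20 had 129 in treated DCs and 8 in PBS DCs. In T cells these 3 genes were called lower, with log2 ratios of -1.81, -1.32 and -1.83. The lowest in DCs were Noc2l, with 0 counts in treated DCs and 505 in PBS DCs, Polr1b, with 1 in treated DCs and 56 in PBS DCs, Imp3 at -4.48 and Nop16 at -3.08.

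Of 5 measured genes for chaperones and importers of single ribosomal proteins, 4 were called lower in DCs and none higher, with a median of -2.64. Over all genes, 41.8% were called lower and 30.2% higher. Grwd1, a chaperone of Rpl3, had 7 counts in treated DCs and 636 in PBS DCs, a log2 ratio of -5.69. Tsr2, which escorts Rps26, had 2 counts in treated DCs and 367 in PBS DCs, with a log2 interval of -9.75 to -4.84. It had 0 counts in treated T cells and 203 in PBS T cells, and was the gene of this list called there. Ltv1, a factor of small subunit assembly, had -1.29 in DCs, and Heatr3 had 0 counts in treated DCs and 33 in PBS DCs. Bccip had -0.77 and was not called, and Pdcd2 had 0 counts in every library.

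Among 14 genes of the mTORC1 and LARP1 pathway that regulates TOP mRNAs, 4 were called higher and 6 lower in DCs, with a median of -0.72. In T cells none was called higher and 3 lower, with a median of -0.25. The DC shares, 28.6% higher and 42.9% lower, were near the 30.2% and 41.8% of all genes. The T cell share called lower was 21.4%, against 25.4% of all genes. The highest in DCs were Eif4ebp2 at 2.39, Larp4 at 1.91 and Rptor at 1.80. Mtor, the kinase itself, had 0 counts in treated DCs and 213 in PBS DCs, and 425 in treated T cells and 609 in PBS T cells. Rps6kb2 had 2 counts in treated DCs and 182 in PBS DCs, with a log2 interval of -8.75 to -3.81, and Mlst8, a subunit shared by both mTOR complexes, had 6 in treated DCs and 273 in PBS DCs. Nuclear genes for mitochondrial ribosomal proteins had 15 of 77 called higher and 31 lower in DCs, with a median of -0.32, and 3 higher and 4 lower in T cells, with a median of -0.17. Their shares higher and lower were 19.5% and 40.3% in DCs, against 30.2% and 41.8% of all genes. In T cells they were 3.9% and 5.2%, against 18.3% and 25.4%.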

How the data were processed

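The deposited tables, 1 per cell type, hold whole-number read counts per gene, the FPKM and a listed gene length. Per the file headers the authors give FPKM beside each count, and it was checked that FPKM equals the count scaled by listed length and library total within a relative difference of 2.04e-07. Upstream tools were RSEM 1.2.12, HISAT2 2.0.4, R 3.3.1 and DESeq2 1.24.0 on build GRCm39 per the submitters' processing notes, which give no roles. The sources used here do not say whether counting used strand. Genes with no symbol, 51 of 21959, entered no comparison.

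Columns were matched to samples by the file numbers in the sample descriptions. Titles give both PBS samples the number 2 where descriptions give 1, so which PBS library is which rests on the descriptions. A further 2 PBS libraries, in 4 columns, match no sample and were not used here.

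Counts were scaled for each pair of libraries by TMM (edgeR 4.0.16, R 4.3.3). Log2 ratios carry exact conditional binomial (Clopper-Pearson) 95% intervals. A library at 0 was set to a floor of 3 counts, which is 0.213 CPM for treated DCs, 0.126 for PBS DCs, 0.162 for treated T cells and 0.161 for PBS T cells, and list medians hold such genes at that bound. Genes with a symbol and 20 or more counts in either library entered. Genes 2-fold or more apart with an interval excluding 0 on the log2 scale were called. Coding and transcript lengths came from GENCODE M21 by gene ID, for 83 of 83 ribosomal protein genes. The genes, lists and comparisons were chosen with earlier results of these data known. Named genes were the 5 highest and 5 lowest ratios in each cell type with 100 or more counts, the 5 highest mean FPKM, P stalk genes and Rpsa, paralogs with their parents, genes called lower, at 0 or called in opposite directions, and listed related genes. Genes outside this are marked as named after seeing their values. Alternatives covered scaling, count minimum, fold threshold, length correction by lowess with a fraction of 0.3, paralogs left out and log2(FPKM + 1). Shares with further genes added are not reported here. The code was tested on simulated data.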

Additional observations from a re-analysis of the deposited data

Results flagged for a closer look

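The median ratio of ribosomal protein genes lay on opposite sides of 0 in the 2 cell types. The median log2 ratio of treated over PBS was 1.78 in DCs and -0.75 in T cells. In T cells 60 of 82 genes were not called, and the share called lower, 25.6%, was near the 25.4% of all genes. The difference between cell types was not tested, since each group had 1 library.

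The 18 genes called higher in treated DCs and lower in treated T cells are 22.5% of the 80 that entered both comparisons, against 7.39% of all genes, and none of these differences was tested. After correction for coding length, chosen after seeing the data, 2 of the 18 were still called lower in T cells. The log2 ratio in DCs minus that in T cells was largest for Rpl23a at 6.48, Rps21 at 6.31, Rps28 at 6.01 and Rps29 at 5.10. It was 4.82 for Rpl39, 4.62 for Rps12, 4.61 for Rps27, 4.51 for Rpl30 and 4.34 for Rpl31. For Rpl37a it was 3.77, for Rpl36a 3.70, for Rpl22 3.46 and for Rps26 3.20. The smallest were Rpl34 at 3.11, Rpl35a at 3.08, Rpl13a at 2.91, Rps13 at 2.84 and Rps15a at 2.75.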

How the results depend on the processing

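No paired analysis was possible because each group had 1 library, and for the same reason no library could be left out. The DC median stayed above 0 in every alternative run, between 1.71 with log2(FPKM + 1) and 2.61 after correction for listed gene length, and the T cell median stayed below 0, between -0.85 with upper-quartile scaling and -0.45 after correction for coding length. That correction and a minimum of 100 counts in both libraries were chosen after seeing the data. No median changed sign under any alternative run.

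Counts of called genes moved more. Higher calls in DCs numbered 36 to 72. The 2 lower calls in DCs became 0 after either length correction, 4 at 1.5-fold and 0 at 4-fold. In T cells the 21 lower calls became 12 after correction for listed length, 3 for coding length, 53 at 1.5-fold and 1 at 4-fold, and the 1 higher call became 0 with a minimum of 100 counts, of 20 or 100 in both libraries, or without paralogs. For PBS DCs over PBS T cells the 3 higher calls became 1 with 20 or 100 counts in both libraries and 0 without paralogs, and the 24 lower calls became 47 with total counts, 41 at 1.5-fold and 4 at 4-fold. The median of -0.56 there became -1.09 with total counts and -1.07 with log2(FPKM + 1). For treated DCs over treated T cells the 2 lower calls became 5 with total counts or at 1.5-fold, 1 after correction for listed length, and 0 for coding length or at 4-fold. Fewer genes enter at a higher minimum and a lower threshold calls more by construction. For the other changes the cause was not tested.

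Shares of counts in treated DCs, PBS DCs, treated T cells and PBS T cells were 10.4%, 3.99%, 6.26% and 9.12% without mitochondrially encoded genes in the total. As shares of summed FPKM they were 12.8%, 4.82%, 8.30% and 11.4%. For single named genes under other scalings and the listed-length correction, 309 values kept their direction and call, 13 lost the call, 2 gained one and 6 turned in sign. In DCs, correction for listed length turned Rpl3 to 0.64, Rpl4 to 1.16, Rpl6 to 0.36 and Rpl7l1 to 0.17. In T cells it turned Rplp0 to 0.019, and upper-quartile scaling turned Rpl4 to -0.049. Of these 6, Rpl4 in DCs was called after the correction, and the cause was not tested. Depth limits mainly Rps10, Rpl39l and Rpl36al. It also limits Rpl13a, Rpl23a, Rpl24 and Rpl3l, each with fewer than 100 counts in at least 1 library.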
